A study of Mus musculus with 2 samples.

Results

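The genes described here encode the machinery that copies DNA and the enzymes that supply its building blocks: 39 genes chosen by name from 19938 genes measured on the array by a probe set of their own. They and the comparison lists used below were chosen with earlier results of these data known. Copying starts when the origin recognition complex, with Cdc6 and Cdt1, loads the MCM helicase on DNA. Mcm10 and the GINS complex help to activate it, after which primase and the DNA polymerases, held by the sliding clamp PCNA, synthesise new strands. The deoxynucleotides come from ribonucleotide reductase, thymidylate synthase and salvage kinases. Most of these genes are transcribed when cells prepare for S phase, through E2F transcription factors, and their mRNAs are widely read as signs of dividing cells. Healing skin holds dividing fibroblasts, endothelial cells, keratinocytes and leukocytes at this stage.

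The B-Gal positive sample was total RNA of cells labelled as B-Gal positive from the healing skin of TCF reporter mice 1 week after wounding, and the B-Gal negative sample was its counterpart from the same kind of mice, tissue and time. A TCF reporter is read here as a transgene that makes beta-galactosidase where TCF factors, the nuclear partners of beta-catenin, are active. The separation of the cells, the promoter of the reporter and the number of pooled mice were not given in the sources used here. No probe set was named for lacZ in the platform annotation, so the reporter could not serve as a check of the labels. There was 1 array per group, without replicates. No difference below therefore has an error or a test, and 1 array per group limits the precision of every value. Differences are log2 values of B-Gal positive minus B-Gal negative cells, so a negative number means a lower value in B-Gal positive cells.

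Replication genes lay mostly on the lower side in B-Gal positive cells, by small amounts. A gene was counted as expressed if at least 1 array exceeded a floor of 5.59 on the log2 scale, the 95th percentile over 1194 genes of olfactory and vomeronasal receptors. Of the 39 genes, 38 were expressed. Among the 38, 28 had a lower value in B-Gal positive cells, 9 had a higher value and 1 had the same value in both arrays. Over all 13784 expressed genes, 45.5% had a lower value. The median difference of the 38 genes was -0.39, against 0.06 over all expressed genes, whose middle range from the 25th to the 75th percentile ran from -0.41 to 0.44.

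On the deposited values, differences of at least 2-fold were about as frequent among replication genes, on the lower side, as in the arrays as a whole. Of the 38 genes, 5 (13.2%) were at least 2-fold lower in B-Gal positive cells, beside 12.7% of all expressed genes, so this share was near the background. The number at least 2-fold higher was 0 of 38, beside 9.92% of all expressed genes. At least 1.5-fold, 15 genes (39.5%) were lower, beside 20.1% of all expressed genes, and 0 were higher, beside 18.8%. The genes at least 2-fold lower were Tyms, Rrm1, Rrm2, Uhrf1 and Prim1. If both arrays were centred on the receptor genes, which by itself lowers every difference by 0.28, the shares were no longer alike: 13 members (34.2%) passed 2-fold on the lower side, beside 17.3% of all expressed genes, and 0 on the higher side. The counts over all expressed genes then were 2402 lower and 958 higher, in place of 1753 lower and 1368 higher on the deposited values.

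**Figure D1:**
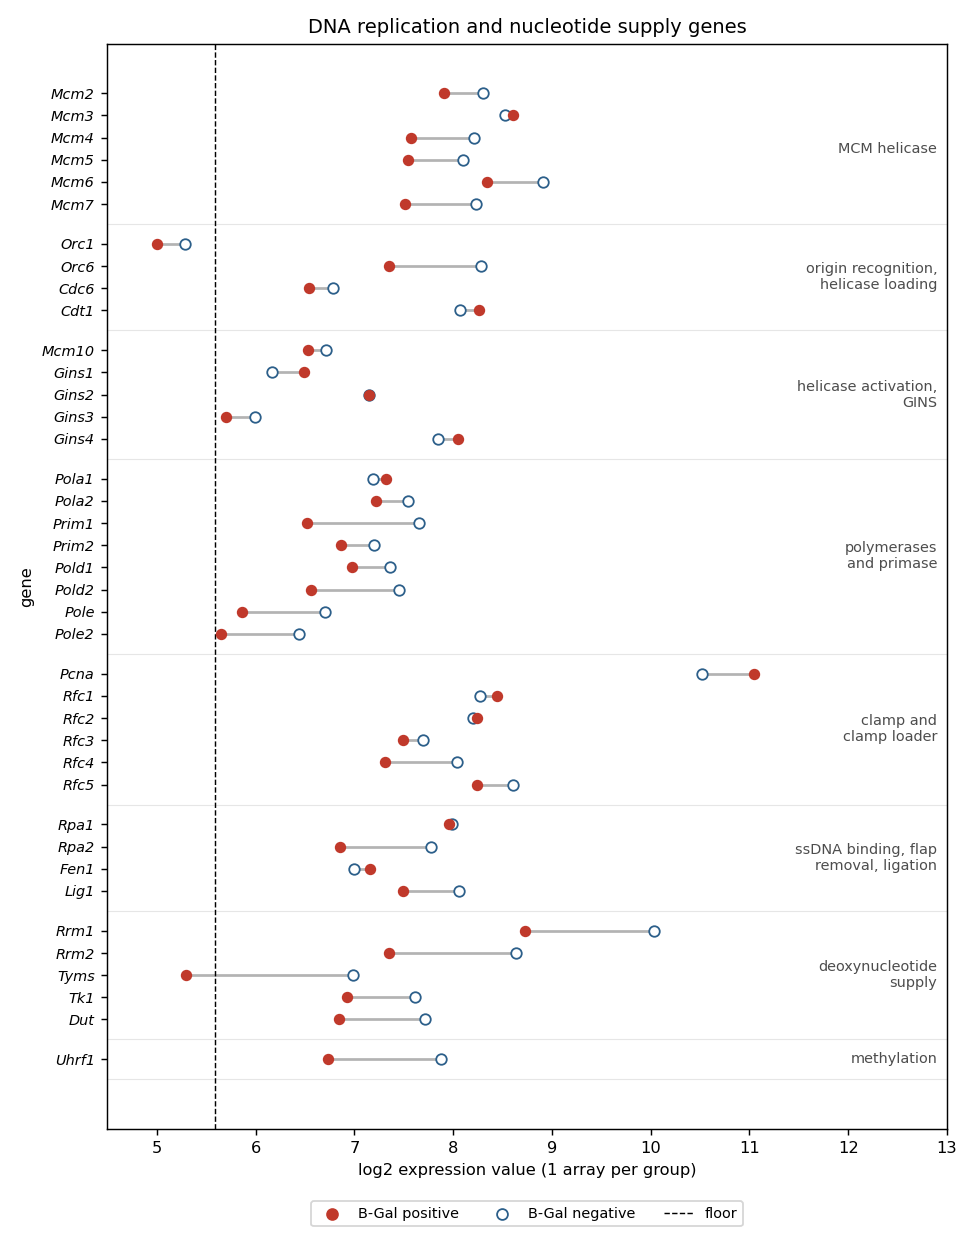
Log2 expression values of the 39 replication and nucleotide supply genes, 1 row per gene grouped by role, with filled points for the B-Gal positive array, open points for the B-Gal negative array and a dashed line at the floor of 5.59. Filled points lie left of open ones for most genes, with Pcna the farthest to the other side and both points of Orc1 under the floor.

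The 2 arrays differed widely in cell type genes, in both directions. All 17 expressed macrophage markers were higher by 2-fold or more in B-Gal positive cells (median difference 3.52), and all 16 fibroblast markers were at least 2-fold lower (median -3.57). Over all expressed genes, 9.92% were at least 2-fold higher and 12.7% at least 2-fold lower. Summed on the linear scale, macrophage markers were 11.1 times higher and fibroblast markers 6.05 times lower in B-Gal positive cells. No fibroblast marker lay at or under the floor in B-Gal positive cells. Cd163 and Ms4a7 were the 2 macrophage markers at or under it in B-Gal negative cells. Endothelial markers had a median of -1.53, mast cell markers -2.86, T and NK cell markers -1.50 and basal keratinocyte markers -0.19 (-0.51 under receptor centring). Of 8 expressed T and NK markers, 7 had lower values and 1, Cd4, had a higher value (1.56). Cpa3, Mcpt4, Cma1 and Fcer1a of the mast cell list counted as expressed through the B-Gal negative array alone. So did Cd3g, Il2rb and Nkg7 of the T and NK list, Krt5, Lamb3, Cxcr2 and Retnlg. Their place on the lower side was fixed by that filter. Cd163, Ms4a7, Mpo, Camp, Mmp8 and Krt16 passed through the B-Gal positive array alone, which fixed them on the higher side. Thy1 is in both the fibroblast list and the T and NK list. Of 8 expressed neutrophil markers, 4 had lower and 4 had higher values, and their median was -0.65. Under receptor centring the neutrophil median was -2.08, the value of Retnlg, because the filter then kept a different set of markers. The keratinocyte value of -0.51 also rests on a changed set, so neither shows the scaling alone. The part that these cell types have in the replication differences was not tested. In bulk RNA, fewer dividing cells and less of each mRNA per cell cannot be told apart.

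The enzymes of deoxynucleotide supply stood lowest among the roles, with all 5 members on the lower side in B-Gal positive cells and a median of -1.28, which lay between -1.57 under receptor centring and -1.14 with a linear offset. Rrm1, the large subunit of ribonucleotide reductase, which turns ribonucleotides into deoxynucleotides, had a log2 value of 8.73 in B-Gal positive cells and 10.03 in B-Gal negative cells, a 2.46-fold lower value. Rrm2, the small subunit that is made in S phase, had 7.35 in B-Gal positive cells and 8.63 in B-Gal negative cells, a 2.43-fold lower value. The subunits of this enzyme therefore differed by nearly the same amount, -1.30 for Rrm1 and -1.28 for Rrm2. Of all expressed genes, 9.71% had a difference as low as that of Rrm1.

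Tyms, thymidylate synthase, which makes the thymidine nucleotide from its uridine counterpart, had 5.30 in B-Gal positive cells and 6.99 in B-Gal negative cells. Its value in B-Gal positive cells lay under the floor, and against the floor it was at least 2.65-fold lower. Tyms was the 1 member that counted as expressed through the B-Gal negative array alone, so its place on the lower side was fixed by that filter. Dut, which removes dUTP and feeds thymidylate synthase, had 6.85 in B-Gal positive cells and 7.71 in B-Gal negative cells (-0.86). Tk1, the cytosolic thymidine kinase of S phase cells, had 6.92 and 7.62 in the B-Gal positive array and the B-Gal negative array (-0.70). A second probe set of Tk1, at 6.36 and 7.07, gave -0.71, close to the first.

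Nucleotide genes outside the 39 went in both directions. Of 38 expressed genes of a wider list of deoxynucleotide and nucleotide enzymes, 7 (18.4%) were at least 2-fold lower in B-Gal positive cells. The share over all expressed genes was 12.7%. Higher by that much were 5 (13.2%), beside 9.92% of all expressed genes, and the median was -0.11. Among the lower ones, Ctps, a CTP synthase, had 6.13 in B-Gal positive cells and 8.56 in B-Gal negative cells (5.40-fold lower). Cad, which catalyses the opening steps of pyrimidine synthesis, had 7.002 in B-Gal positive cells and 8.73 in B-Gal negative cells (3.31-fold lower). Dctd, the dCMP deaminase, had 6.32 and 8.01 in the B-Gal positive array and the B-Gal negative array (3.22-fold lower). Shmt2, Uck2, Dtymk and Ada, named after their values were seen, completed the lower group, with differences between -1.42 for Shmt2 and -1.02 for Ada.

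The genes on the higher side included a kinase and a phosphohydrolase that work outside S phase. Tk2, the mitochondrial thymidine kinase, had 8.51 in B-Gal positive cells and 6.60 in B-Gal negative cells, a 3.76-fold higher value. Samhd1, which breaks down deoxynucleoside triphosphates and is known in human macrophages for limiting HIV, had 11.11 in B-Gal positive cells and 9.79 in B-Gal negative cells (2.49-fold higher). Hprt, a purine salvage enzyme, Dck, the deoxycytidine kinase, and Cmpk2, a mitochondrial nucleotide kinase induced by interferon, were named after their values were seen. They were 2.46-fold, 2.30-fold and 2.01-fold higher. Rrm2b, the ribonucleotide reductase subunit used outside S phase, had 7.001 and 6.71 in the B-Gal positive array and the B-Gal negative array (0.29), a small difference on the side opposite to Rrm2.

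**Figure D2:**
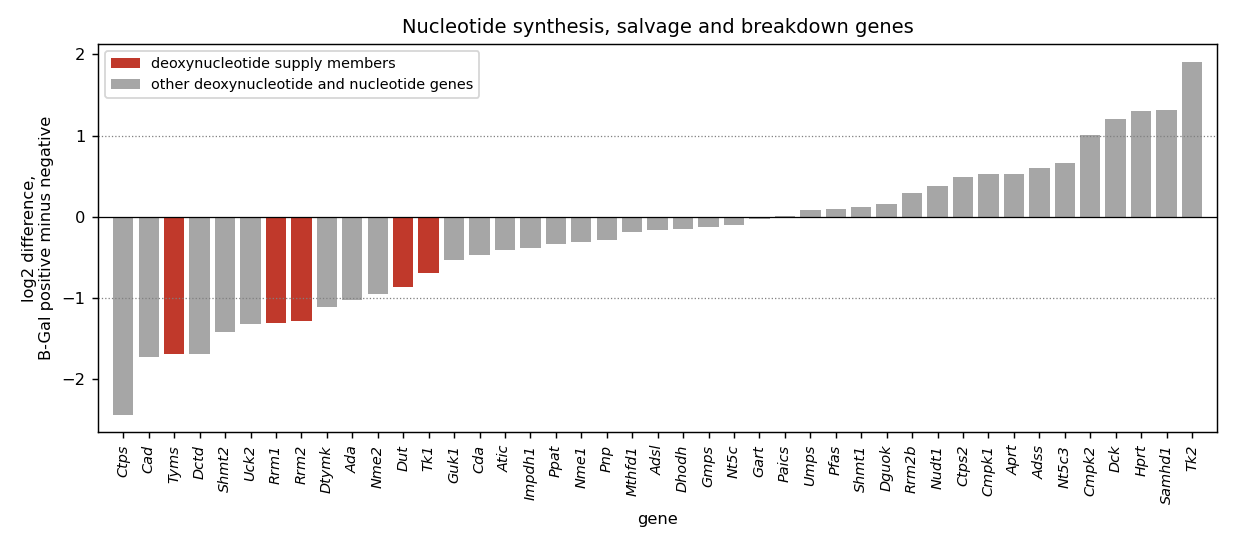
Log2 differences (B-Gal positive minus B-Gal negative, 1 array each) of the 5 deoxynucleotide supply members in red and of 38 other nucleotide genes in grey, in order of difference, with dotted lines at 2-fold. The red bars all lie on the lower side, between -1.69 for Tyms and -0.70 for Tk1, while Tk2 and Samhd1 lead the higher side.

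The MCM helicase genes, whose products form a ring that unwinds DNA at the fork, differed by less than 2-fold, except that receptor centring put Mcm7 at the threshold. The helicase genes Mcm2, Mcm4, Mcm5, Mcm6 and Mcm7 were on the lower side in B-Gal positive cells, with differences from -0.72 for Mcm7 to -0.39 for Mcm2. Mcm7 had 7.51 in B-Gal positive cells and 8.23 in B-Gal negative cells, and Mcm4 had 7.58 in B-Gal positive cells and 8.21 in B-Gal negative cells. Mcm3 was apart from the other subunits, at 8.61 in B-Gal positive cells and 8.52 in B-Gal negative cells (0.09), a sign that turned when the arrays were centred on the receptor genes. The median of the 6 genes was -0.56.

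Genes that load and activate the helicase varied in sign. Orc6, a subunit of the origin recognition complex, had 7.35 in B-Gal positive cells and 8.28 in B-Gal negative cells (-0.93), just inside 2-fold. Orc1, the largest subunit of that complex, had 4.999 and 5.29 in the B-Gal positive array and the B-Gal negative array, both under the floor, so no fold is given. Cdc6, a loader of the helicase, differed by -0.25. Cdt1, its partner in loading, had 8.26 in B-Gal positive cells and 8.07 in B-Gal negative cells (0.19), with the sign again turned by receptor centring. Gmnn, geminin, the inhibitor of Cdt1, differed by 0.25 in the same direction as Cdt1 and turned with it.

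Mcm10 and the GINS genes were the role with the median nearest to 0. Mcm10, a helicase activator, differed by -0.18. Gins1 had 6.49 in B-Gal positive cells and 6.17 in B-Gal negative cells (0.32), Gins4 differed by 0.20 and Gins3 by -0.29, and Gins2 had 7.15 in both arrays. The median of the 5 genes was 0.00, and it lay between -0.28 and 0.09 under the scalings and the linear offset tried. Cdc45, the third component of the active helicase beside MCM and GINS, is not among the 39 genes. It had 6.52 in B-Gal positive cells and 7.49 in B-Gal negative cells (-0.96), a larger difference on the lower side than that of any GINS gene.

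Primase and polymerase genes were lower in B-Gal positive cells for 7 of 8 members, with a median of -0.59. Prim1, the catalytic subunit of primase, which makes the RNA primers, had 6.52 in B-Gal positive cells and 7.65 in B-Gal negative cells, a 2.19-fold lower value. Its partner Prim2 had 6.87 in B-Gal positive cells and 7.20 in B-Gal negative cells (-0.34). The subunits of polymerase alpha, which extends these primers, split in sign, with Pola1 at 0.13, turned by receptor centring, and Pola2 at -0.33.

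The 4 members of the polymerases that copy the bulk of the strands were on the lower side. Pold2, an accessory subunit of polymerase delta, had 6.56 in B-Gal positive cells and 7.45 in B-Gal negative cells (-0.89), and the catalytic subunit Pold1 differed by -0.38. Pole, the catalytic subunit of polymerase epsilon, had 5.86 in B-Gal positive cells and 6.70 in B-Gal negative cells (-0.84). Pole2, its partner, had 5.65 and 6.44 in the B-Gal positive array and the B-Gal negative array (-0.79). Of the other polymerase delta subunits, which are not among the 39 genes and were named after their values were seen, Pold3 had 8.003 in B-Gal positive cells and 7.51 in B-Gal negative cells (0.50) and Pold4 differed by 0.30, both on the higher side. The values of Pole and Pole2 in B-Gal positive cells stood just above the floor of 5.59, the 95th percentile over the receptor genes.

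Pcna was the member with the largest difference on the higher side. Pcna encodes the clamp that tethers polymerases to DNA and also serves DNA repair. It had 11.04 in B-Gal positive cells and 10.52 in B-Gal negative cells, a 1.43-fold higher value. A second probe set read 11.04 and 10.53, a difference of 0.51 beside 0.52 in the first, and the difference was 0.24 under receptor centring. Of the clamp loader genes, Rfc4 had 7.31 in B-Gal positive cells and 8.04 in B-Gal negative cells (-0.73), Rfc5 differed by -0.36 and Rfc3 by -0.20. Rfc1, the large subunit, and Rfc2 differed by 0.18 and 0.04, both turned by receptor centring, and Rfc2 also by loess (-0.03).

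Genes of single-strand binding and strand joining also differed within complexes. Rpa2, the middle subunit of replication protein A, had 6.86 in B-Gal positive cells and 7.78 in B-Gal negative cells (-0.92), while its partner Rpa1 had 7.95 and 7.99 in the B-Gal positive array and the B-Gal negative array (-0.04). Lig1, the ligase that joins Okazaki fragments, had 7.49 in B-Gal positive cells and 8.06 in B-Gal negative cells (-0.57). Fen1, the nuclease that trims their flaps, differed by 0.16, turned by receptor centring. Uhrf1, which brings the methyltransferase DNMT1 to newly copied DNA, had 6.73 in B-Gal positive cells and 7.88 in B-Gal negative cells, a 2.22-fold lower value. Dnmt1 itself, named after its value was seen, differed by 0.11, turned by receptor centring.

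**Figure D3:**
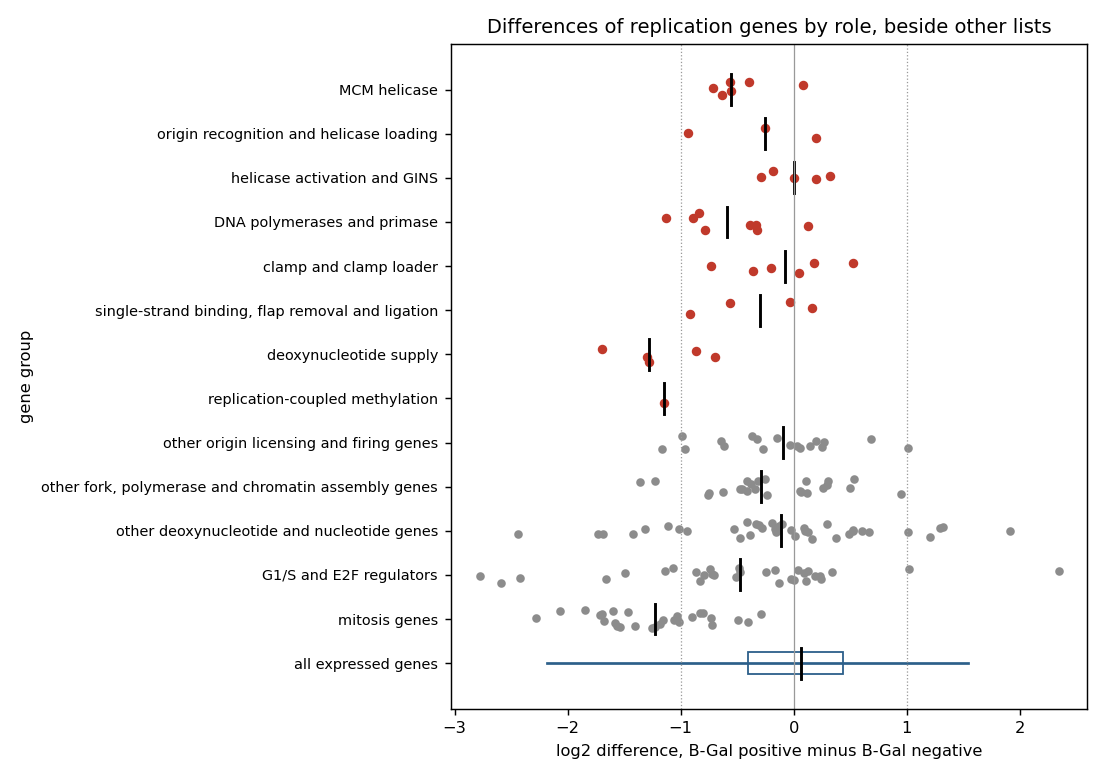
Log2 differences (B-Gal positive minus B-Gal negative, 1 array each) of the 38 expressed members by role in red and of related lists in grey, 1 point per gene with vertical jitter and a black bar at each median; the box of all expressed genes spans the 25th to 75th percentiles and its line the 5th to 95th, and dotted lines mark 2-fold. Deoxynucleotide supply lies lowest of the roles with more than 1 gene (median -1.28), GINS lies at 0, and mitosis genes have a median of -1.23.

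Mitosis genes, the list most like this one, were lower by more. Of 27 expressed mitosis genes, 19 (70.4%) were at least 2-fold lower in B-Gal positive cells, beside 5 of 38 (13.2%) for the replication genes and 12.7% of all expressed genes. Their median was -1.23, against -0.39 for replication genes, and with 1 array per group this contrast has no test. Ttk and Cenpf counted as expressed through the B-Gal negative array alone, so their lower side was fixed by that filter. Against the floor, Ttk was at least 1.92-fold and Cenpf at least 2.09-fold lower. With values raised to the floor, the median of mitosis genes was -1.16. Anln, the anillin of the cleavage furrow, had 6.25 in B-Gal positive cells and 8.53 in B-Gal negative cells (4.86-fold lower). Mki67, the Ki-67 antigen of cycling cells, had 8.76 in B-Gal positive cells and 9.05 in B-Gal negative cells (-0.29), the smallest difference of its list.

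Further replication genes outside the 39 had medians nearer to 0. Of 18 expressed genes of origin licensing and firing, 1 was at least 2-fold lower, Mtbp, a firing factor (-1.16), and 1 at least 2-fold higher, Mcm9, a helicase of recombination repair (1.01), around a median of -0.09. Each is 5.56% of that list, beside 12.7% of all expressed genes on the lower side and 9.92% on the higher side. Mcm8, Cdc7 and Ticrr of that list counted as expressed through the B-Gal negative array alone. Their lower side was fixed by that filter, and the median of -0.09 includes them. Of 24 expressed genes of the fork, polymerase accessory subunits and chromatin assembly, 2 (8.33%) passed 2-fold on the lower side and 0 on the higher side, around a median of -0.29. Those were Pclaf, a PCNA-binding factor, at 8.03 in B-Gal positive cells and 9.39 in B-Gal negative cells (-1.36), and Tipin, of the fork protection complex, at -1.23. Dna2, a nuclease of flaps, differed by 0.95. Pclaf went opposite to Pcna, whose protein it binds.

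Among 31 expressed regulators of the G1/S step, 7 (22.6%) were at least 2-fold lower, beside 12.7% of all expressed genes. At least 2-fold higher were 2 (6.45%), beside 9.92% of all expressed genes, and the median was -0.48. Ccne2, among the 7, counted as expressed through the B-Gal negative array alone, so its side was fixed by that filter. Ccnd2, a D-type cyclin, had 8.21 in B-Gal positive cells and 10.99 in B-Gal negative cells (6.86-fold lower). Myc, a growth-promoting transcription factor, had 8.59 in B-Gal positive cells and 11.02 in B-Gal negative cells (5.36-fold lower). Cdkn1c, an inhibitor of cyclin-dependent kinases, was also lower, at 7.61 in B-Gal positive cells and 10.19 in B-Gal negative cells. Rb1, the retinoblastoma protein, which holds E2F factors in check, had 9.64 in B-Gal positive cells and 7.30 in B-Gal negative cells, a 5.07-fold higher value. E2f1, an activator of replication genes, differed by 0.24, turned by receptor centring, and the S phase cyclin Ccna2 by -1.66.

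The promoters of the replication genes share a sequence feature that the choice of members did not use. RefSeq promoter windows of the build GRCm38.p6, from 250 bases before to 50 after an annotated start, were found for 32 of the 39 genes and searched on both strands. The E2F-type motif was TTCCCGC, or the form with CG in the middle (TTCGCGC), or with GC there (TTGCCGC), or with GG there (TTGGCGC). Of the 32 genes, 21 (65.6%) held at least 1 match in a window. The share was 10.9% over all 27025 genes with a window and 13.7% over the 17491 protein-coding ones. The CHR motif TTTGAA, a cell cycle element of mitosis promoters, was found for 4 of the 32 genes (12.5%), 18 of 25 mitosis genes (72%) and 20.2% of all genes. The E2F-type motif was found for 4 of the 25 mitosis genes (16%). CCAAT, which can share letters with TTGGCGC on the other strand, was found for 20 of the 32 replication genes (62.5%), 19 of the 25 mitosis genes (76%) and 41.1% of all genes.

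The windows below are those of the 5 genes at least 2-fold lower in B-Gal positive cells, then of Mcm3 and Pcna, which were on the higher side. E2F-type matches are in capitals, with none in Tyms and Pcna, and each sequence reads 5′ to 3′ on the gene's strand.
Rrm1: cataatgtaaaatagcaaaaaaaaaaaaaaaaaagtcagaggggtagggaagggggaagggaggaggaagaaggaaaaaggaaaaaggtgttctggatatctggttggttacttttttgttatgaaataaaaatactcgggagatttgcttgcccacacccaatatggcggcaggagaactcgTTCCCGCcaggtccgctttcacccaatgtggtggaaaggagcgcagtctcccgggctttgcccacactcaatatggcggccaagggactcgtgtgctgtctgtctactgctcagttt
Rrm2: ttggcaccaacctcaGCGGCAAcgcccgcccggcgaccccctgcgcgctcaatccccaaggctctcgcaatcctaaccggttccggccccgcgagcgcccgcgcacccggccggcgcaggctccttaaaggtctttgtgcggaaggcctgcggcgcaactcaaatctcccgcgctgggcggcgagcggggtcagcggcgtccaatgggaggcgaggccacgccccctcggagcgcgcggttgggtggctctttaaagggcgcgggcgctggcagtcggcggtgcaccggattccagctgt
Tyms: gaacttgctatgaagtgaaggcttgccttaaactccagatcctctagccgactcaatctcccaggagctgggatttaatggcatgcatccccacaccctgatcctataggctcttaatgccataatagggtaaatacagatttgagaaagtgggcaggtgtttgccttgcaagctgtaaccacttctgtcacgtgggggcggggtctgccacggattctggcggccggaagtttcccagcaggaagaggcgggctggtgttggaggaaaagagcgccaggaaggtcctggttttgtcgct
Prim1: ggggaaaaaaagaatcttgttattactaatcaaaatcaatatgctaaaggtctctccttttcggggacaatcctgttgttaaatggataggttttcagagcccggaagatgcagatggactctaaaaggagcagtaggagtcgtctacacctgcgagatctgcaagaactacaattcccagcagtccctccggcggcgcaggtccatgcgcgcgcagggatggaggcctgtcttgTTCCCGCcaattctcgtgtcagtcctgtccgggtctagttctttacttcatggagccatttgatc
Uhrf1: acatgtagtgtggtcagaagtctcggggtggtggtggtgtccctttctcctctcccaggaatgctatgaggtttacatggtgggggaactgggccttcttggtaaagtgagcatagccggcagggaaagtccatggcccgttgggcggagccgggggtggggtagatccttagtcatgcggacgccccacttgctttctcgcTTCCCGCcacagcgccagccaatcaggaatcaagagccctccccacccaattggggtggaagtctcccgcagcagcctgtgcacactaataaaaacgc
Mcm3: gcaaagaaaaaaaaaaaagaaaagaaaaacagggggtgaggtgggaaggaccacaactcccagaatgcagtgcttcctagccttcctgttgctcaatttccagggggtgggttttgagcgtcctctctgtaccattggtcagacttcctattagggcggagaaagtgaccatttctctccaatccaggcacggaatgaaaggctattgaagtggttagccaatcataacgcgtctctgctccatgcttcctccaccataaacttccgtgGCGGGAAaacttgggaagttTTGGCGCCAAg
Pcna: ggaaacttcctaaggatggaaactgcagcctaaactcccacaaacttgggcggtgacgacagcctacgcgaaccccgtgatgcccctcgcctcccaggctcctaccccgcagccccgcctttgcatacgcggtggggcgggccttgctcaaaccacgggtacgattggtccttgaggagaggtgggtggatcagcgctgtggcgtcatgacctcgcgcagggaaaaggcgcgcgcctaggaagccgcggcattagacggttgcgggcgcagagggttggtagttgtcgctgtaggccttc
The Rrm1 window is chr7:102441445-102441744, plus strand. The Rrm2 window is chr12:24708004-24708303, plus strand. The Tyms window is chr5:30073576-30073875, minus strand, and the Prim1 window is chr10:128014965-128015264, plus strand. The Uhrf1 window, the first of 2 listed for that gene, is chr17:56303087-56303386, plus strand. The Mcm3 window is chr1:20820263-20820562, minus strand, and the Pcna window is chr2:132253131-132253430, minus strand.

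Matches occurred in genes on both sides. Rrm1, Prim1 and Uhrf1 held the same letters, TTCCCGC, beginning at positions -67, -15 and -48 from the annotated start, and Rrm2 held its 1 match at -235, near the upstream end of the window. Mcm3, with a difference of 0.09, held 3 matches after the start, of which 2 overlap. Tyms, the lowest member, and Pcna, the highest, held none, which says only that these letters are not in these windows. Expressed members with a match had a median difference of -0.56 (20 genes), and those with a window and no match -0.39 (11 genes). Next to the 2-fold threshold, Prim1 (-1.13) and Rpa2 (-0.92) each held 1 match, and Orc6 (-0.93) held none.

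**Figure D4:**
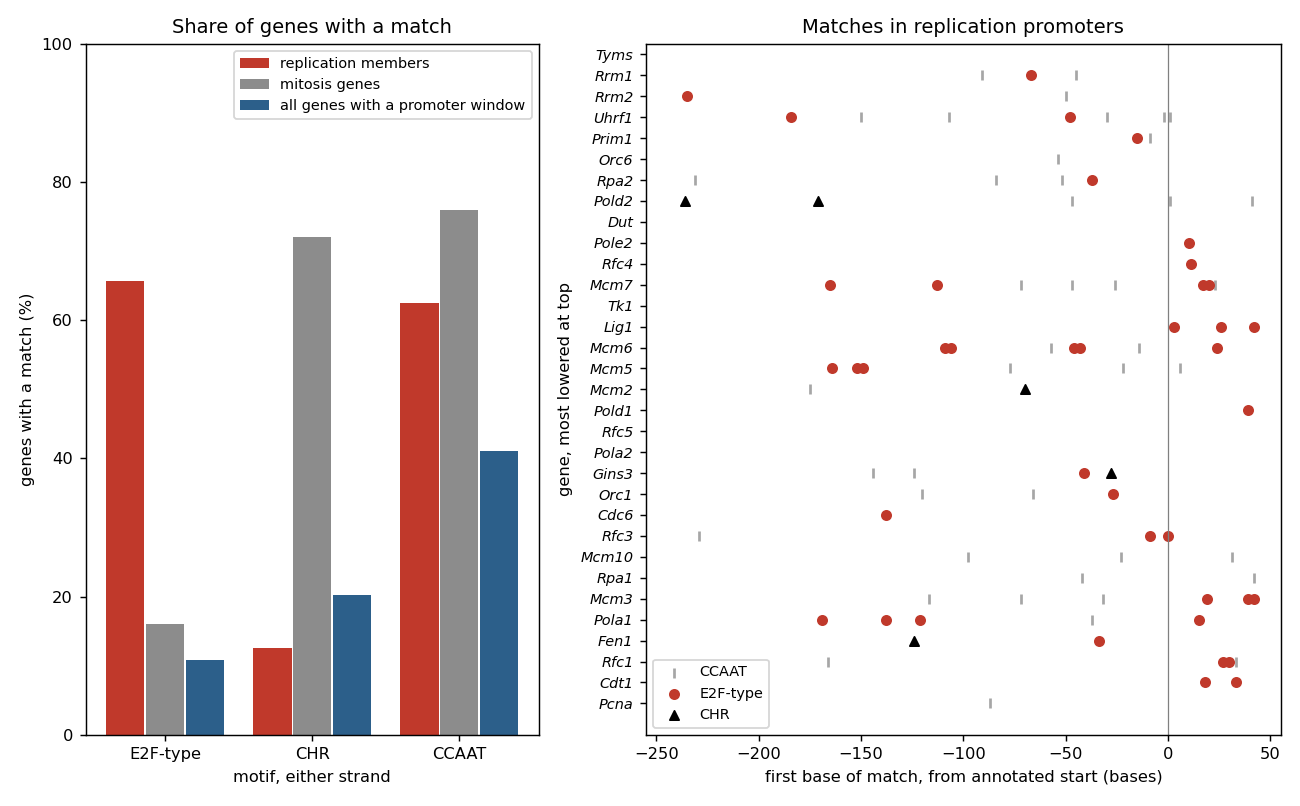
Left, the share of genes with at least 1 match of each motif in a promoter window, in percent, for replication members, mitosis genes and all genes with a window; right, positions of matches in all listed windows of each replication gene, in bases from the annotated start at 0, with the most lowered gene at the top. Circles of the E2F-type motif run from top to bottom of the gene order, and the E2F-type share of replication genes (65.6%) exceeds that of all genes (10.9%).

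Each member's difference was also computed under 8 alternatives that change scaling, low values or the choice of probe set. Receptor centring lowers all differences alike, so it can turn small positive values and no negative one, and it turned 7 of the 9 higher members, all but Pcna and Gins1. Loess also turned Rfc2, to -0.03. Rrm1, Rrm2 and Tyms were at least 2-fold lower in each of the 8. Uhrf1 and Prim1 were so in the deposited values, but their differences shrank to -0.95 and -0.91 at the smallest.

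**Figure D5:**
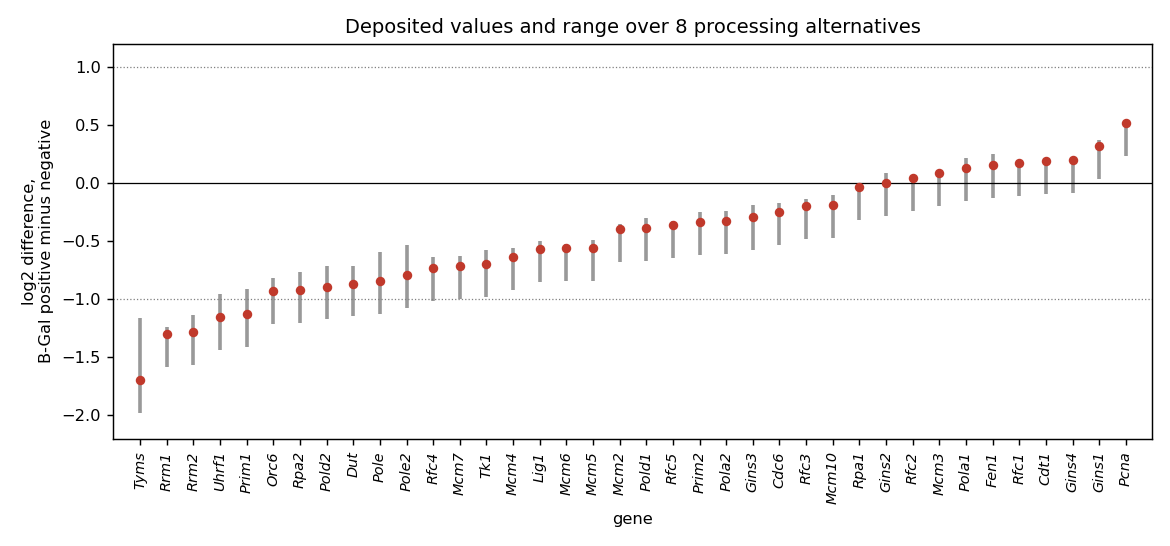
Log2 difference (B-Gal positive minus B-Gal negative) of each of the 38 expressed members, with the deposited values as points and the range over those values and 8 processing alternatives as bars; dotted lines mark 2-fold. The bars of Tyms, Rrm1 and Rrm2 lie wholly past 2-fold on the lower side; the lower ends of the bars are set by receptor centring, which shifts all genes alike.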

How the data were processed

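Biotin-labelled total RNA was measured on Affymetrix Mouse Gene ST arrays, 1 per group, per the labels and the series' design text, which describes microdissected, homogenised wound tissue. The authors deposited 1 value per probe set and array, 28853 in all, read here as log2 values from their range of 1.16 to 14.8. Partek was used, per the submitters' processing notes. How values were summarized, normalized and logged is not stated there, and every fold rests on the log2 reading.

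Only probe sets naming 1 gene in the platform annotation were used (21789), and for genes with several, the one with the highest mean of both arrays. All 39 symbols matched RefSeq by gene ID. No scaling was added. Array medians were 6.16 for B-Gal positive and 6.18 for B-Gal negative. Calls are folds of at least 2, with no p-value. The members and 12 comparison lists were chosen with earlier results of these data known. Outside the members, genes were named by a rule: up to 4 expressed genes per list with the largest absolute difference, of which the text uses some, and 9 fixed genes, of which Cdkn1a had no probe set naming it alone. Other genes named are said to be so, apart from Cd4 and the genes named for passing the filter through 1 array alone. Alternatives were centring of array medians, loess (span 0.4, 3 iterations), quantile normalization, centring on receptor genes, a linear offset of 32, raising values to the floor, other filters, other probe set choices, folds of 1.5 and 4, and means. The steps were tested on simulated arrays. Python 3.11.15, pandas 2.3.3 and statsmodels 0.14.6 were used.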

Additional observations from a re-analysis of the deposited data

How the results depend on the processing

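The count of 5 members at least 2-fold lower was 13 when arrays were centred on the receptor genes, 3 with the linear offset, 15 at 1.5-fold and 0 at 4-fold. The offset compresses low values, centring subtracts a constant, and the other changes are those of the threshold itself. It was 5 under the other alternatives tried: array centring, loess, quantile normalization, values raised to the floor, no filter, the stricter floor, the filter at the gene-wide median and both other probe set choices. The median of the members ran from -0.67 (receptor centring) to -0.34 (offset), and that of mitosis genes from -1.51 to -0.98 with the same settings at the ends. Members with a lower value numbered 27 to 36, and 0 were at least 2-fold higher in any setting. Of 304 values of single members under the 8 alternatives, 303 moved by less than 0.37, the SD of the differences across receptor genes. The exception was Tyms with the offset (-1.16). That SD is a spread between genes in 1 pair of arrays and does not measure replicate spread. Many of the values could not move past it. The 2 centrings shift every member by a constant, 0.02 for array medians and -0.28 for receptor genes. Other probe set choices could change only Pcna and Tk1, and raising values to the floor only Tyms. Loess lowered the median of all genes by more than 0.1, with a shift of -0.14, and receptor centring shifted it by -0.28. No paired analysis was possible because each group has 1 array. Probe sets near the floor, such as those of Pole, Pole2, Gins3 and Tyms, limit what can be said of low genes.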

Other observations

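Gins2 had exactly the same deposited value in both arrays. This was so for 82 of the 13784 expressed genes and for 614 of the 28853 probe sets, and 7.69% of the values of the B-Gal positive array also occurred in the B-Gal negative array. The reason was not tested.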
